A study of Mus musculus with 10 samples.

Results

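The HoxC cluster was described from H3K4me3 and H3K27me3 reads along mm9 chr15:102745001-102875000, a window of 130 kb that holds Hoxc13 at its low end and Hoxc4 at its high end. The members were the 65 bins of 2 kb that tile this window, chosen by position alone, of 1319450 such bins over chromosomes 1 to 19 and X. They were numbered from the Hoxc4 end, and 13 segments of 10 kb were numbered the same way. No mm9 gene annotation was used here, so a bin is given by its position and is not assigned to a single Hoxc gene.

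Chromatin was immunoprecipitated and sequenced in 10 libraries of 3 mouse embryonic stem (ES) cell lines, with 1 library for each line, state and mark. XT67E1 (strain C3H/Pgk*129) was profiled for both marks undifferentiated in serum with LIF, on day 4 of treatment with atRA, the all-trans form of retinoic acid, and as embryoid bodies (EBs) grown for 10 days without LIF. For LF2 and E14 (both 129/Ola) the H3K27me3 libraries cover the undifferentiated state and 10-day EBs. EBs are aggregates of several differentiating cell types, so each value is a mean over cells, and a mark on fewer cells cannot be told apart from less mark per cell. Without gene positions, the labelled cell type could not be checked against marker genes here.

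Hox genes encode homeodomain transcription factors that set position along the body axis. In the HoxC cluster Hoxc4, Hoxc5 and Hoxc6 act towards the neck and upper trunk, Hoxc8 and Hoxc9 in the trunk, and Hoxc10 to Hoxc13 further back, with Hoxc13 also needed in hair and nails. In ES cells these genes are silent and covered by H3K27me3, which Polycomb complex PRC2 places, while H3K4me3 marks active or poised promoters. During development and under retinoic acid, Hox clusters are known to open in order, beginning at the end that corresponds to Hoxc4.

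The RefSeq table for GRCm38.p6, used only for names and order, lists the members from the Hoxc4 end as Hoxc4, Hoxc5, Hoxc6, Hoxc8, Hoxc9, Hoxc10, Hoxc11, Hoxc12 and Hoxc13. It also places the microRNA gene Mir615 between Hoxc4 and Hoxc5 in this order, Mir196a-2 between Hoxc9 and Hoxc10, and the long noncoding RNA gene Hotair between Hoxc11 and Hoxc12. A promoter sequence was listed for 1 of the 9 members, Hoxc4, the gene at the end where H3K27me3 differed most between atRA and undifferentiated cells. It is shown as 300 bases at chr15:103034145-103034444 of GRCm38.p6, plus strand, a build whose positions cannot be set beside the mm9 positions used elsewhere. Capitals mark a match to AGGTCA, a core motif of retinoic acid receptors, here on the minus strand as TGACCT:
Hoxc4: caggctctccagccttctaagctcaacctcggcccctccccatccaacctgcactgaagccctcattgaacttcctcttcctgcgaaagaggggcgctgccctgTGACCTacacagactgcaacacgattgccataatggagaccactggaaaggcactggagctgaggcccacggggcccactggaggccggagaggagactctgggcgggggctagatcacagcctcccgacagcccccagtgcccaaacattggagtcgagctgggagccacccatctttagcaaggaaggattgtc

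The sequence holds 1 match to AGGTCA on either strand, as 16.3% of the 32851 listed promoters of this length hold at least 1. It has 9 CpG dinucleotides against a median of 7, and a GC content of 60.3% against a median of 52.7%. A match is a description of letters and not a site of binding. Of the microRNAs that lie within the HoxC gene order, miR-196a is known to target the Hoxb8 transcript. The mature 5′ arm of Mir196a-2 and the 3′ arm of Mir615 are given with the seed, bases 2 to 8, in capitals:
mmu-miR-196a-5p: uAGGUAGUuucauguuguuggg
mmu-miR-615-3p: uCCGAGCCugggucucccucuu

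H3K27me3 covered the whole cluster in every line and state. In all 7 libraries each of the 65 bins held more reads than the median autosomal bin. In RPM, reads per 1000000 autosomal reads, the window held 385 in undifferentiated XT67E1 (3087 reads, 95% Poisson interval 371 to 399), 382 after atRA (369 to 396) and 401 in EBs (387 to 415). It held 513 in undifferentiated LF2 (492 to 534) and 471 in LF2 EBs (451 to 492). In E14 it held 667 undifferentiated (643 to 692) and 864 in EBs (837 to 892). E14 EBs were the highest and XT67E1 after atRA the lowest, and the 3 XT67E1 libraries lay closest together. These intervals cover counting error only, and with 1 library per group no difference between 2 libraries has a replicate check.

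**Figure D1:**
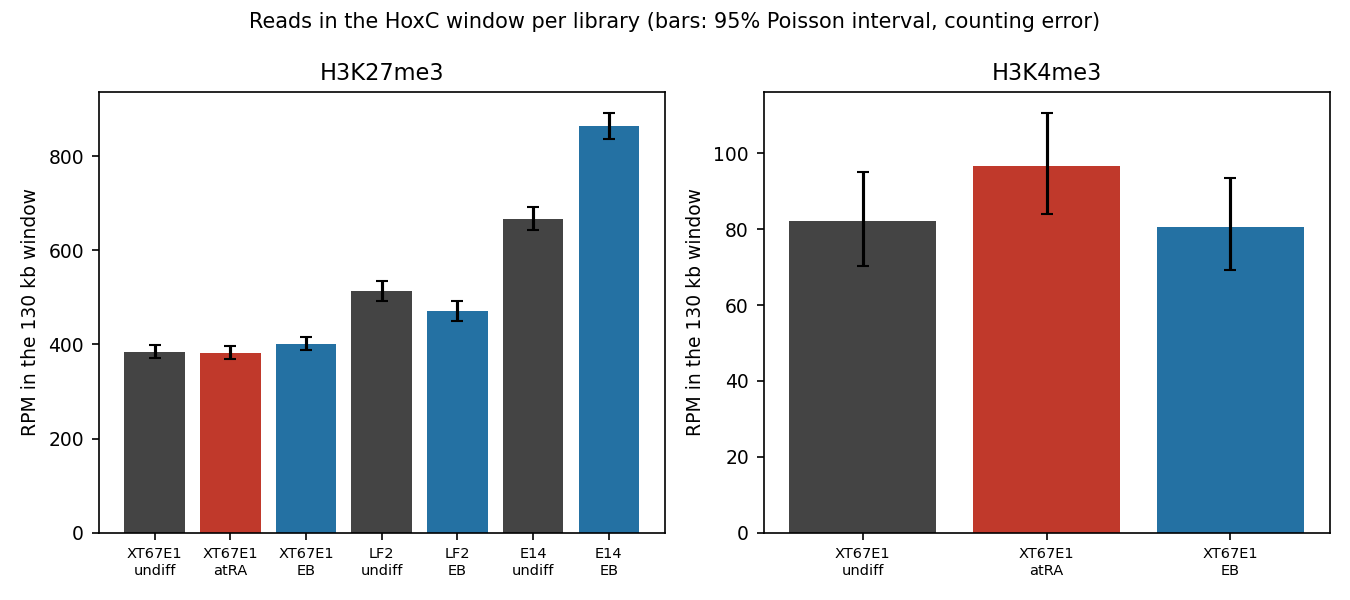
Reads in the 130 kb HoxC window per library, in RPM (vertical axes, linear from 0), for H3K27me3 in 3 lines (left) and H3K4me3 in XT67E1 (right), with bars coloured by state and 95% Poisson intervals. H3K27me3 runs from 382 in XT67E1 after atRA to 864 in E14 EBs, while the H3K4me3 intervals of the 3 states overlap.

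Per unit length, the window held H3K27me3 at 7.27 to 7.63 times the mean autosomal density in XT67E1, 8.96 and 9.75 times in LF2 EBs and undifferentiated LF2, and 12.7 and 16.4 times in undifferentiated E14 and E14 EBs. Among 19000 autosomal windows of the same length, the cluster ranked 2, 3 and 4 in undifferentiated, atRA and EB XT67E1. Its rank was 3 in both LF2 libraries, 2 in undifferentiated E14 and 1 in E14 EBs. The cluster was therefore among the 4 windows with the most H3K27me3 in each of the 7 libraries.

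In undifferentiated XT67E1 the mark was highest near the middle of the cluster and lower towards both ends. There the bins ran from 1.87 RPM in bin 1, at the Hoxc4 end, to 8.73 RPM in bin 33 (102809001 to 102811000), with a median of 5.98. By the rule for named bins, the other local maxima were bin 36 (8.60 RPM), bin 46 (67 reads), bin 64 (65 reads) and bin 40 (63 reads). The lowest 10 kb segments of undifferentiated XT67E1 were segment 12, towards Hoxc13, at 19.8 RPM, and segment 1, at the Hoxc4 end, at 19.9 RPM, and the highest was segment 7 at 40.9 RPM. In undifferentiated LF2 and E14 segment 7 held 52.0 and 77.3 RPM, while segment 1 held 25.7 and 26.3 RPM.

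The edges of the domain differed in sharpness. At the Hoxc13 end H3K27me3 continued past the window, at 6.73, 5.49 and 5.36 RPM in the first 3 bins of 2 kb beyond it in undifferentiated XT67E1. It was 3.12 RPM in the next bin, 8 kb out, and 1.62 RPM at 12 kb. At the Hoxc4 end the first 3 bins beyond the window held 13, 11 and 9 reads (1.62, 1.37 and 1.12 RPM), against a mean of 6.49 reads per autosomal bin. A second stretch of up to 6.48 RPM lay 16 kb beyond the Hoxc4 end.

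H3K4me3 in the cluster was sparse and concentrated in a few bins. The window held 177 reads in undifferentiated XT67E1 (82.1 RPM, 95% Poisson interval 70.4 to 95.1), 208 after atRA (96.6 RPM, 83.9 to 111) and 174 in EBs (80.7 RPM, 69.1 to 93.6). This is 1.56, 1.84 and 1.53 times the mean autosomal density, and the cluster ranked 2836, 1765 and 2673 of the 19000 windows. The median bin held 2 reads in each state. Most bins were thus too shallow for a comparison of 2 states, and 2 bins had the 20 reads required for one in atRA against undifferentiated cells.

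The main H3K4me3 peak in ES cells lay at the Hoxc13 end. Bin 62 (102751001 to 102753000) held 28 reads undifferentiated (12.98 RPM), 20 after atRA (9.29 RPM) and 12 in EBs (5.56 RPM). The level was lower in EBs than in undifferentiated cells by 1.16 (log2, 95% counting interval -2.33 to -0.20), and after atRA the interval of the difference included 0 (log2 -0.46, interval -1.39 to 0.40). Bin 62 was the bin called lower in EBs, of 1 tested, where 13.3% of all tested bins were called lower and 2.89% higher. A call required at least 2-fold and a counting interval that excludes no difference. The EB value was below 2-fold under median scaling (-0.82) and with a pseudocount of 5 reads (-0.96). Bin 62 was named by its undifferentiated reads, a choice that favours lower values in the other states.

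H3K27me3 dipped at this H3K4me3 peak in XT67E1. Bin 62 held 2.87 RPM of H3K27me3 undifferentiated, against 6.36 RPM in bin 63 and 4.86 RPM in bin 61 beside it. After atRA bin 62 held 2.99 RPM, and in EBs, where H3K4me3 was lowest, 5.41 RPM. The EB difference was 0.89 (log2, interval 0.15 to 1.71), below the 2-fold rule. LF2 and E14 held 8.94 and 12.7 RPM undifferentiated in bin 62, above both neighbours, and no H3K4me3 library of these lines was analysed here.

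A weaker H3K4me3 peak lay 10 kb nearer to Hoxc4. Bin 57 (102761001 to 102763000) held 10 H3K4me3 reads undifferentiated, 2 after atRA and 5 in EBs. Its H3K27me3 went the other way, with 21 reads undifferentiated (2.62 RPM), 42 after atRA (5.24 RPM) and 45 in EBs (5.66 RPM). The EB difference in H3K27me3 was 1.08 (log2, interval 0.33 to 1.93) and passed the 2-fold rule, but was 0.97 with background scaling and 0.96 with a pseudocount of 5 reads. Under the rule for named bins the further H3K4me3 maxima were bins 42 and 54, with 7 reads each, and bins 38 and 48, with 4 reads each, a level that cannot be told from neighbouring bins at this depth. All these bins, with bin 57, were named by their undifferentiated H3K4me3, which favours lower counts in the other states. The higher H3K27me3 in EBs was not particular to bin 57. Bin 58 beside it, with 1 undifferentiated H3K4me3 read, held 21 H3K27me3 reads undifferentiated, 26 after atRA and 44 in EBs.

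After atRA, H3K4me3 was higher in 2 bins that held little of it in undifferentiated cells. Bin 32 (102811001 to 102813000), at the middle of the cluster, held 4 reads undifferentiated (1.85 RPM), 19 after atRA (8.82 RPM) and 8 in EBs (3.71 RPM). The atRA value was higher by 2.00 (log2, interval 0.66 to 4.26) and was the bin called higher, of 2 tested, where 4.94% of all tested bins were called higher and 12.2% lower. With the bin grid shifted by 1 kb, 0 bins were called. Bin 5 (102865001 to 102867000), near the Hoxc4 end, held 2 reads undifferentiated (0.93 RPM), 15 after atRA (6.96 RPM) and 4 in EBs (1.85 RPM). Its atRA difference was 2.42 (log2, interval 0.80 to 6.08), and with 17 reads in the 2 libraries it was under the read minimum. It was chosen after its values were seen.

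Summed over each 65 kb end, H3K4me3 in RPM was higher at the Hoxc4 end after atRA and in EBs. In the 65 kb at the Hoxc4 end, H3K4me3 was 29.7 RPM undifferentiated, 49.2 RPM after atRA (log2 difference 0.73, interval 0.27 to 1.20) and 44.0 RPM in EBs (0.57, interval 0.10 to 1.05). In the 65 kb at the Hoxc13 end it was 52.4 RPM undifferentiated, 47.4 RPM after atRA (-0.15, interval -0.55 to 0.25) and 36.6 RPM in EBs (-0.52, interval -0.95 to -0.09). For EBs the value of each single end depended on the scaling. Background scaling shifts both EB log2 differences by -0.157, so that the interval of the Hoxc4 end includes 0. Median scaling shifts them by 0.334, so that the interval of the Hoxc13 end includes 0. The difference between the ends was 0.87 for atRA (interval 0.26 to 1.50) and 1.08 for EBs (0.44 to 1.74). Both share the undifferentiated library. In EBs set directly against atRA, 0 of the 2 bins tested were called, where 2.39% of all tested bins were called higher and 5.53% lower. So few tested bins cannot show whether the 2 states are alike. Of the 64 undifferentiated and 106 atRA reads at the Hoxc4 end, bin 32 held 4 and 19, and bin 5 held 2 and 15. Both bins were described above for their higher value after atRA, so the sum over this end is not separate from them. The centre of bin 32 lies 63 kb from the Hoxc4 end, so it changes sides when the window is divided nearer to Hoxc4. The differences between the ends depended on the dividing point. With the window divided 50 kb from the Hoxc4 end they were 0.50 (interval -0.161 to 1.16) for atRA and 0.71 (0.0273 to 1.4) for EBs. Divided 40 kb from it they were 0.35 (-0.368 to 1.07) and 0.55 (-0.183 to 1.29), so 3 of these 4 intervals include 0.

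**Figure D2:**
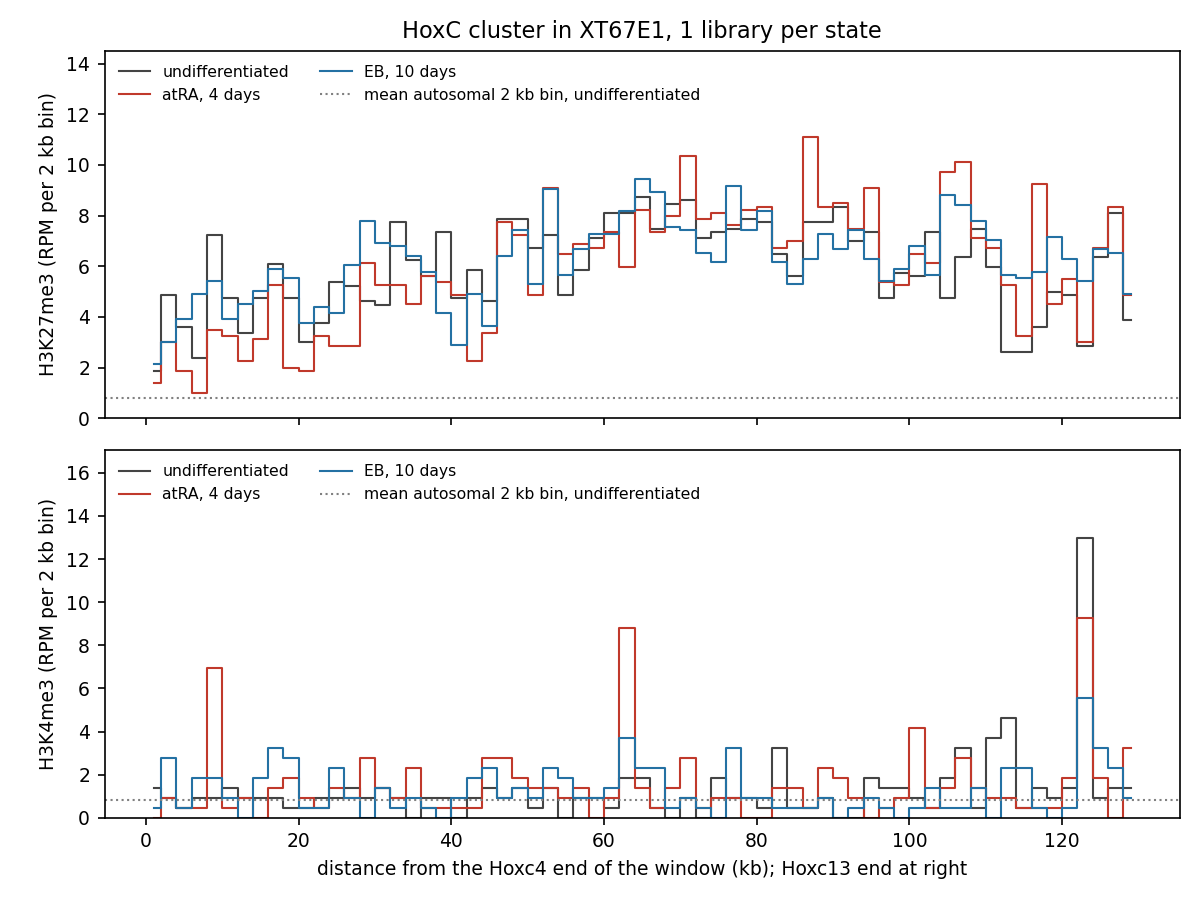
H3K27me3 (top) and H3K4me3 (bottom) in XT67E1 in RPM per 2 kb bin against distance from the Hoxc4 end of the window in kb, for undifferentiated cells, 4 days of atRA and 10-day EBs, with the mean autosomal bin dotted. H3K27me3 after atRA runs low at the Hoxc4 end, where 1 of the H3K4me3 peaks after atRA also stands, and the tallest H3K4me3 peak, 12.98 RPM in undifferentiated cells, stands near the Hoxc13 end.

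After 4 days of atRA, the H3K27me3 total of the cluster was close to that of undifferentiated cells, but its spread along the cluster differed. The window total was 0.993 times that of undifferentiated XT67E1 (log2 -0.01, interval -0.08 to 0.06). The 65 kb at the Hoxc4 end held 181 RPM undifferentiated and 146 RPM after atRA, a log2 difference of -0.30 (interval -0.42 to -0.19), or -0.16 (-0.271 to -0.0472) with background scaling. The 65 kb at the Hoxc13 end held 204 and 236 RPM, a difference of 0.21 (interval 0.11 to 0.30). The ends therefore differed by -0.51 (interval -0.66 to -0.36), a contrast within the libraries that no scaling of whole libraries can change. Dividing the window 40 kb or 50 kb from the Hoxc4 end gave -0.60 and -0.59.

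The segments in order from Hoxc4 showed where H3K27me3 was lower. Segment 1 held 19.9 RPM undifferentiated, 10.7 RPM after atRA and 19.4 RPM in EBs, a log2 atRA difference of -0.89 (interval -1.29 to -0.51). Segment 2 held 23.7 RPM undifferentiated and 15.8 RPM after atRA (-0.58, interval -0.92 to -0.25). Segments 3, 4 and 5 followed at -0.37, -0.27 and -0.28. The counting intervals of these first 5 segments, and of no other segment, lay below 0. With background scaling 2 segments did, the first and the second, and with median scaling 5 did. Beyond them the difference was 0.10 in segment 6 and -0.15 in segment 7, with intervals that include 0. The share of 10 kb segments elsewhere whose interval excludes 0 was not computed, so counts of segments, here and below, have no background.

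Towards Hoxc13 H3K27me3 was higher after atRA. The intervals of 3 segments lay above 0: segment 9 at 0.24 (interval 0.00 to 0.47), segment 11 at 0.33 (0.08 to 0.57) and segment 12 at 0.54 (0.25 to 0.85). With background scaling 5 segments did, and with median scaling 2 did, segments 11 and 12. Segment 12 held 19.8 RPM undifferentiated and 28.9 RPM after atRA. Over the 65 bins the atRA log2 ratio increased with distance from the Hoxc4 end (Spearman's rho 0.67, Pearson's r 0.68), a description of bins that share the same 2 libraries. In the 50 kb beyond the Hoxc4 end of the window, the atRA difference was -0.03 (interval -0.21 to 0.15), an interval that includes 0. In the 50 kb beyond the Hoxc13 end it was 0.26 (0.07 to 0.46). Other H3K27me3-rich bins, defined below, were higher by 0.37 in sum between the same 2 libraries.

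At single bins, 3 of 65 were called lower after atRA, where 2.13% of all tested bins were, and 2 were called higher, where 3.66% were. The called counts are small and the share called higher is near the background. Bin 5, the bin near Hoxc4 with H3K4me3 after atRA, held 7.23 RPM of H3K27me3 undifferentiated, 3.49 RPM after atRA (log2 -1.02, interval -1.76 to -0.38) and 5.41 RPM in EBs. Bins 10 (102855001 to 102857000) and 22 (102831001 to 102833000) were lower by -1.20 and -1.34 (log2). Bins 53 (102769001 to 102771000) and 59 (102757001 to 102759000), on the Hoxc13 side, were higher by 1.02 and 1.32. Bin 32, the other bin with H3K4me3 after atRA, held 8.10 RPM undifferentiated and 5.99 RPM after atRA (-0.43, interval -1.01 to 0.12).

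Summed together, other H3K27me3-rich bins differed from the cluster in this comparison, while single regions went both ways, as the windows most like the cluster show below. The 12361 autosomal bins outside the window in the top 1% by summed H3K27me3 of the 7 libraries held 5.66% of autosomal reads in undifferentiated XT67E1 and 7.32% after atRA, a log2 difference of 0.37 against -0.01 in the cluster. The quartiles of the log2 ratio over these bins were 0.04 and 0.66. The cluster was 1.29 times as dense as these bins undifferentiated and 0.994 times as dense after atRA. Whether the cluster differs from such regions in general was not tested, since each value rests on 1 library per state.

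**Figure D3:**
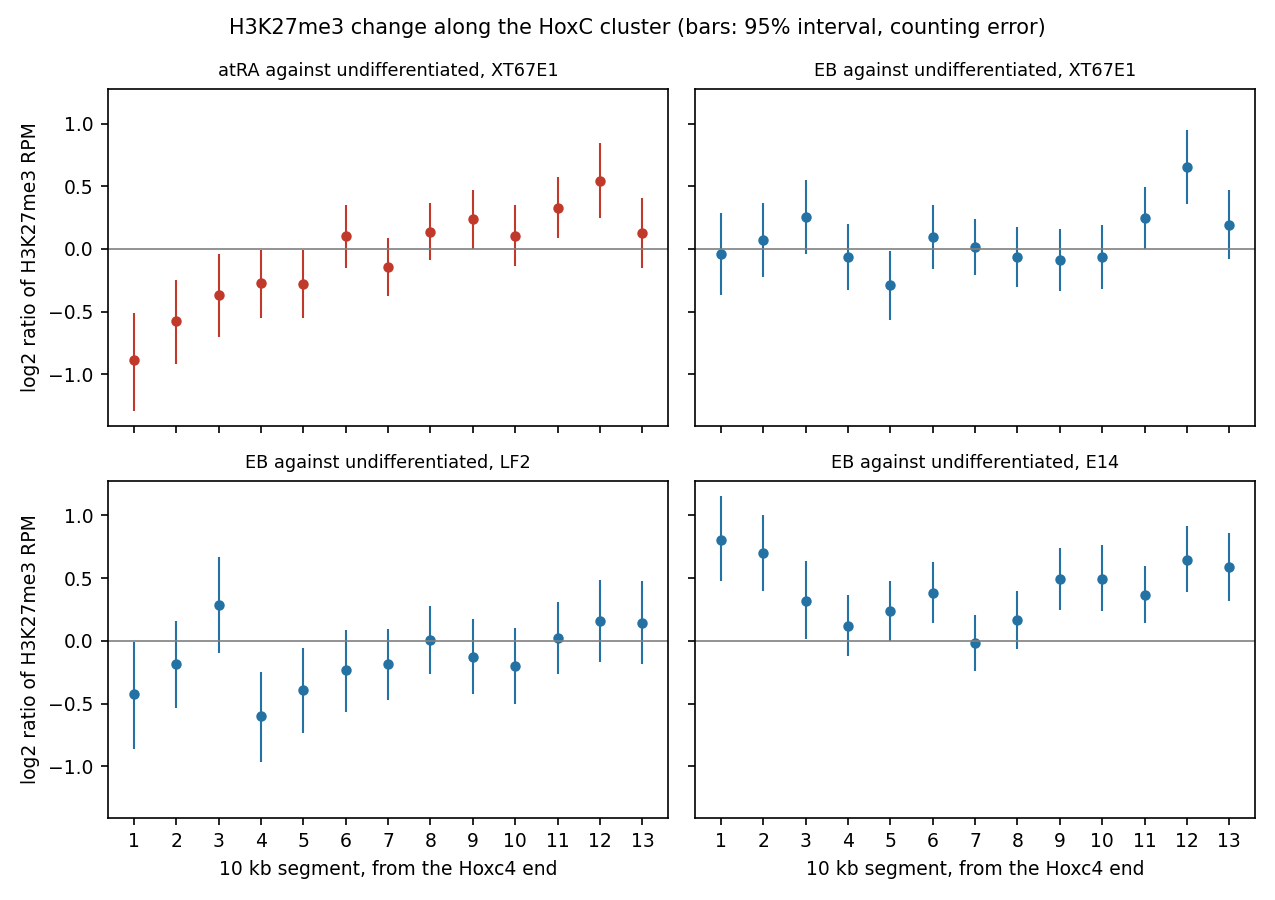
Log2 ratio of H3K27me3 RPM in each 10 kb segment, from segment 1 at the Hoxc4 end to segment 13 at the Hoxc13 end, for atRA and EBs of XT67E1 and for EBs of LF2 and E14 against undifferentiated cells, with 95% counting intervals. After atRA the first 5 segments lie below 0 and segment 12 reaches 0.54, while in E14 EBs 9 of 13 intervals lie above 0.

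In EBs of XT67E1 the Hoxc4 end was close to its undifferentiated level in RPM. The window total was 1.04 times that of undifferentiated cells (log2 0.06, interval -0.01 to 0.13). The 65 kb at the Hoxc4 end differed by 0.00 (interval -0.11 to 0.10, and -0.11 with background scaling) and the 65 kb at the Hoxc13 end by 0.11 (0.02 to 0.21). Segment 12 was highest at 0.65 (interval 0.36 to 0.95), from 19.8 to 31.2 RPM, and segment 5 was lowest at -0.29 (interval -0.57 to -0.02). Of the 65 bins 3 were called higher, where 2.27% of all tested bins were, and 0 were called lower, where 4.07% were. With background scaling or a pseudocount of 5 reads 0 were called. Those higher were the neighbours 57 and 58 in segment 12 (1.08 and 1.04, log2) and bin 4 in segment 1 (1.01). Other H3K27me3-rich bins differed by 0.07 in sum, close to the 0.06 of the cluster.

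Set directly against atRA, EBs of XT67E1 held more H3K27me3 at the Hoxc4 end. Segments 1, 2 and 3 were higher in EBs by 0.84 (interval 0.46 to 1.25), 0.65 (0.32 to 0.98) and 0.62 (0.31 to 0.95), and segment 9 was lower by -0.32 (-0.56 to -0.09). Background scaling shifts these differences by -0.251 and median scaling by 0.195, so that with median scaling the interval of segment 9 includes 0. In RPM the 50 kb beyond the Hoxc4 end was also higher in EBs, by 0.36 (0.18 to 0.53), against 0.30 in the 65 kb at that end. Beyond the Hoxc13 end the difference was -0.09 (-0.28 to 0.10). At single bins 5 of 65 were called higher in EBs, where 1.74% of all tested bins were, and 0 lower, where 5.1% were. The 5 bins called were 3, 4, 10, 14 and 22, with centres up to 43 kb from the Hoxc4 end. Bin 4 (102867001 to 102869000) differed most, with 8 reads after atRA (1.00 RPM), 39 in EBs (4.90 RPM) and 19 undifferentiated (2.37 RPM).

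In LF2 the cluster held slightly less H3K27me3 in EBs. The window total was 0.919 times that of undifferentiated cells (log2 -0.12, interval -0.21 to -0.03). Again the Hoxc4 end was lower, at 227 RPM undifferentiated and 189 RPM in EBs (-0.27, interval -0.40 to -0.13), and the Hoxc13 end was not, at 286 and 282 RPM (-0.02, interval -0.13 to 0.10). The ends differed by -0.25 (interval -0.43 to -0.07), and by -0.15 (interval -0.361 to 0.0579), which includes 0, when the window was divided 40 kb from the Hoxc4 end. Segment 4 was lowest, from 39.2 to 25.8 RPM (-0.60, interval -0.96 to -0.25), followed by segments 1 (-0.43) and 5 (-0.39). Bins 2 (-1.28) and 18 (-1.35) were called lower, where 12.5% of all tested bins were, and bin 65 (1.16) was called higher, where 2.01% were. The other H3K27me3-rich bins of LF2 were lower by -0.38 in sum, and under median scaling the window total of LF2 was higher in EBs, by 0.21, and the Hoxc4 end differed by 0.064, with 0 segments below 0.

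In E14 the cluster in sum held more H3K27me3 in EBs, unevenly along its length. The window total was 1.30 times that of undifferentiated cells (log2 0.37, interval 0.30 to 0.44), and 55 of 65 bins were higher. The median log2 ratio was 0.35 over the 65 bins and 0.17 over all tested bins, so bins elsewhere tended to be higher as well. The 65 kb at the Hoxc4 end differed by 0.30 (interval 0.20 to 0.40) and the 65 kb at the Hoxc13 end by 0.43 (0.34 to 0.53). The intervals of 9 segments lay above 0 (6 with median scaling) and of 0 segments below, with the largest differences in segments 1 (26.3 to 46.1 RPM, 0.81) and 2 (33.5 to 54.5 RPM, 0.70). Segment 7, the densest segment undifferentiated, was 77.3 and 76.5 RPM (-0.02, interval -0.24 to 0.21). The segments thus ranged from 26.3 to 77.3 RPM undifferentiated and from 44.8 to 84.4 RPM in EBs.

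At single bins 6 of 65 were called higher in E14 EBs, where 9.02% of all tested bins were, and 0 lower, where 5.94% were, so the called share is near the background. Bin 57 held 35 reads undifferentiated (7.93 RPM) and 91 in EBs (20.6 RPM), a log2 difference of 1.35, and bin 65 held 27 and 70 reads (1.34). Bin 3 was highest at 1.46. The surroundings of the cluster were higher as well, by 0.73 (interval 0.55 to 0.91) in the 50 kb beyond the Hoxc4 end and by 0.79 (0.55 to 1.02) beyond the Hoxc13 end. Other H3K27me3-rich bins were higher by 0.16 in sum.

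**Figure D4:**
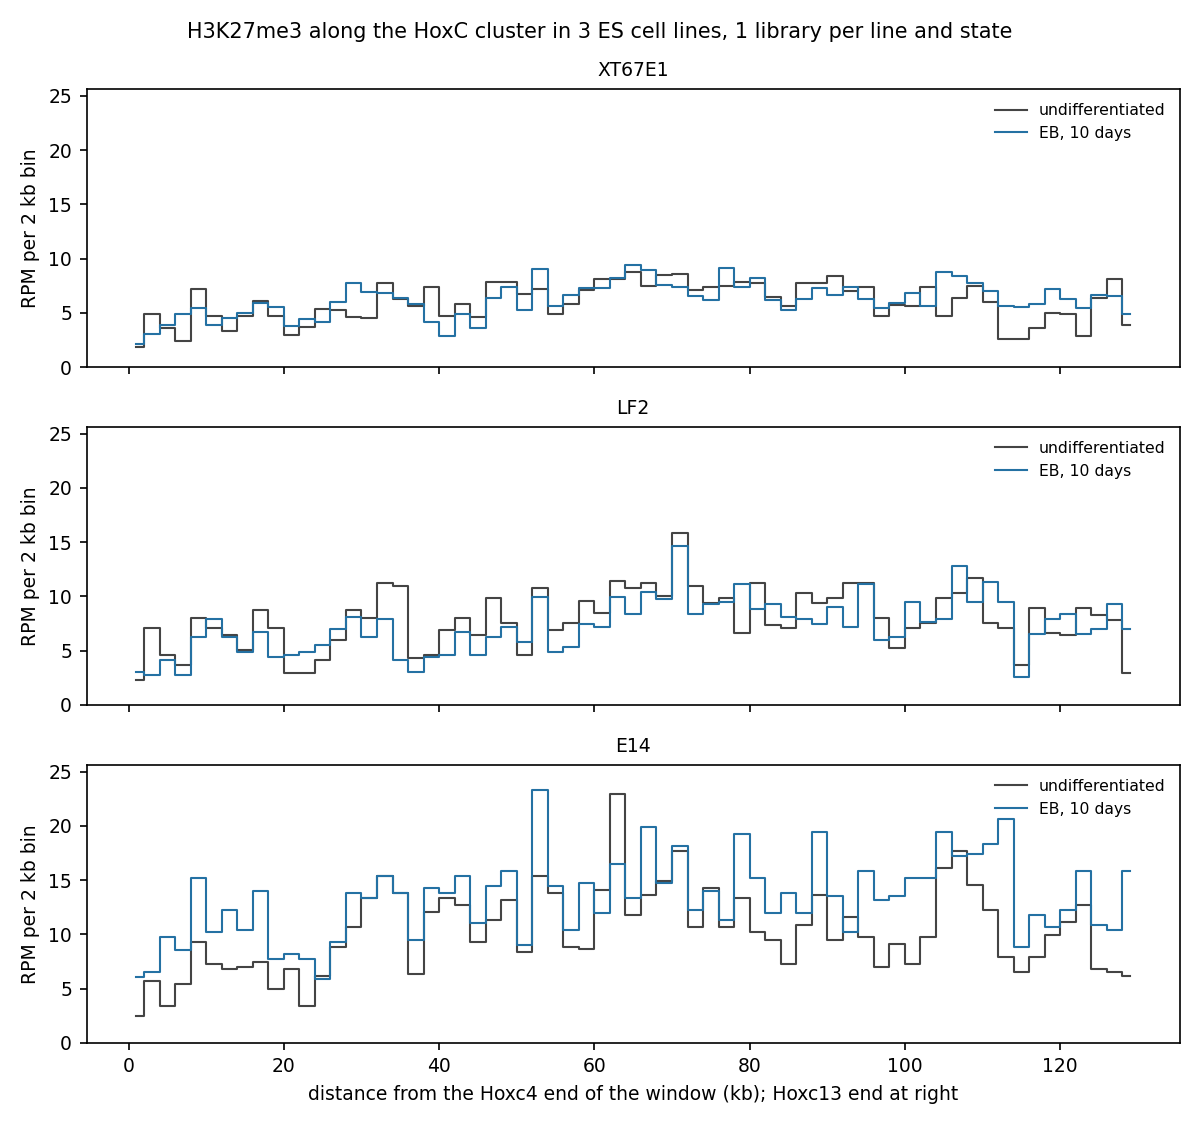
H3K27me3 in RPM per 2 kb bin against distance from the Hoxc4 end in kb, for undifferentiated cells and 10-day EBs of XT67E1, LF2 and E14 on 1 common scale. E14 lies highest, with EB bins up to 23.3 RPM, and XT67E1 lowest, with bins up to 9.43 RPM in EBs.

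Over the 3 lines, EBs and undifferentiated cells were compared with the line as a block. The mean log2 ratio of the window was 0.10 ± 0.25 (SD, n = 3), higher in 2 of 3 lines, and an exact sign-flip test, two-sided, gave p = 0.75, where 3 lines cannot give less than 0.25. In limma with Benjamini-Hochberg adjustment over 67102 bins, 0 of the 65 bins of the cluster were called, where 0.283% of all tested bins were called higher and 0.191% lower. With so few bins called anywhere, 0 calls among 65 bins cannot show that the cluster was unchanged. At an unadjusted p under 0.05 limma gave 2 bins of the cluster, both higher in EBs, or 3.08%, against 11.4% over all bins. With limma voom 0 were called and 5 had an unadjusted p under 0.05, or 7.69%, against 13.1% over all bins. The median log2 ratio was 0.12 over the 65 bins and -0.10 over all tested bins.

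The 2 bins were 57 and 65, chosen after their values were seen. Bin 57 differed by 0.95 (log2, SE 0.32, limma adjusted p = 0.19, and 0.046 to 0.75 over the alternatives). Its log2 ratio was 1.08 in XT67E1, and LF2 and E14 gave 0.41 and 1.35. Bin 65, at the Hoxc13 edge, differed by 0.95 (SE 0.34, limma adjusted p = 0.23, and 0.075 to 0.71 over the alternatives), with 0.33, 1.16 and 1.34 in the 3 lines. Both were higher in EBs of 3 of 3 lines, which is no separate support, since the same lines gave the p by which they were chosen. Other bins, such as 1, 12 and 51, were also higher in 3 of 3 lines. Bin 57 is the bin whose H3K4me3 was 10 reads undifferentiated and 5 in EBs of XT67E1. Under median scaling limma called bin 57 (1.06, adjusted p = 0.046).

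In RPM, H3K27me3 on the cluster was highest in E14 and lowest in XT67E1 in both states. Undifferentiated E14 held 1.73 times the window level of XT67E1 (interval 1.65 to 1.82) and LF2 held 1.33 times (1.26 to 1.41), with E14 at 1.30 times LF2 (1.23 to 1.38). In EBs E14 held 2.15 times the level of XT67E1 (2.05 to 2.26) and 1.83 times that of LF2 (1.74 to 1.94), and LF2 1.17 times that of XT67E1 (1.11 to 1.24). The smaller of these differences depended on the scaling: in log2, undifferentiated E14 against LF2 was 0.38 in RPM and 0.074 (interval -0.00621 to 0.154) with background scaling. LF2 against XT67E1 EBs was 0.23 in RPM and 0.085 (interval 0.0039 to 0.166) with median scaling.

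E14 differed from XT67E1 in many bins, and from LF2 in EBs, while the other pairs of lines had called shares near or below those over all tested bins. In undifferentiated cells 21 bins were called higher in E14 than in XT67E1 (32.3%, where 5.98% of all tested bins were higher and 9.56% lower). LF2 against XT67E1 gave 4 higher bins, where 7.48% of all tested bins were, and E14 against LF2 gave 2, where 3.03% were. In EBs 41 bins were called higher in E14 than in XT67E1 (63.1%, where 8.16% of all tested bins were higher and 4.08% lower), and 25 than in LF2 (38.5%, where 9.28% were higher and 4.13% lower). LF2 against XT67E1 EBs gave 1 higher bin, where 3.77% of all tested bins were, and 1 lower, where 1.85% were. Bin 62, the H3K4me3 peak of XT67E1, showed the largest difference between undifferentiated E14 and XT67E1, at 2.11 (log2, interval 1.42 to 2.91).

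The other H3K27me3-rich bins differed between lines too. They held 5.66% of reads in undifferentiated XT67E1, 8.63% in LF2 and 8.67% in E14, and 5.96%, 6.61% and 9.69% in EBs. Line cannot be told apart here from strain for XT67E1, nor from the preparation of each library, and read numbers differed, with 8380007 reads per XT67E1 library and 4531733 per LF2 or E14 library. Relative to the rich bins the cluster was 1.29, 1.13 and 1.46 times as dense in undifferentiated XT67E1, LF2 and E14, and 1.28, 1.35 and 1.70 times in EBs. The shape along the cluster was partly alike in the undifferentiated lines, with Pearson's r over 65 bins of 0.68 between XT67E1 and LF2, 0.57 between XT67E1 and E14 and 0.70 between LF2 and E14, given as a description. Such values were not particular to undifferentiated cells. Pairs of unlike line and state ran from 0.41, for undifferentiated XT67E1 and E14 EBs, to 0.71, for XT67E1 after atRA and LF2 EBs.

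Both marks were found together on part of the cluster. With a bin counted for a mark when it reached the top 10% threshold of autosomal bins, 23 of 65 bins of undifferentiated XT67E1 carried both (35.4%), against 3.37% of autosomal bins. After atRA 29 bins did (44.6%, against 3.59%) and in EBs 25 (38.5%, against 4.12%). The H3K27me3 threshold was reached by 65, 63 and 65 of the 65 bins, so these counts equal those of H3K4me3 alone. The H3K4me3 threshold was 3 reads, which 18.4%, 19.3% and 20.9% of autosomal bins reached in the same order of states. The shares with both marks therefore exceed the autosomal ones largely through H3K27me3. Many of these bins hold H3K4me3 near the general level. Per unit length, the cluster held 0.552, 0.635 and 0.537 times the H3K4me3 of the other H3K27me3-rich bins. With at least 10 H3K4me3 reads, a threshold added after the data were seen, the counts were 2, 3 and 1 bins of 65 (bins 57 and 62, then 5, 32 and 62, then 62), where 1.31%, 1.14% and 1.20% of autosomal bins reached it.

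The autosomal windows most like the cluster over the 10 libraries were ranked by Euclidean distance of log2(RPM + 1). The nearest was chromosome 11 from 96115001 to 96245000, at a distance of 0.80, followed by chromosome 6 from 52175001 to 52305000 at 1.31, against a median of 9.24 over all windows. As background, mouse Hoxb genes lie on chromosome 11 and Hoxa genes on chromosome 6, but without mm9 annotation the windows were not assigned to genes. The chromosome 11 window held 372 RPM of H3K27me3 in undifferentiated XT67E1, 259 RPM after atRA and 409 RPM in EBs, against 385, 382 and 401 RPM in the HoxC window. Further windows were chromosome 11 from 118865001 to 118995000 (1.68), chromosome 6 from 52045001 to 52175000 (1.91) and chromosome 7 from 86625001 to 86755000 (1.91). H3K27me3 of XT67E1 in the chromosome 6 window from 52045001 was also lower after atRA, at 267 RPM undifferentiated and 153 RPM after atRA. It was higher after atRA in the chromosome 6 window from 52175001 (269 and 323 RPM). The same held for chromosome 11 from 118865001 (248 and 304 RPM) and chromosome 7 (223 and 306 RPM).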

How the data were processed

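Each deposited file lists read intervals of 200 bp on mm9, per the submitters' processing notes, with no value per row. For the aligner and read filters the sources used here give no name, and no interval occurred more than 1 time within a file. Interval midpoints were counted in 2 kb bins on a grid that starts at the low end of the window and scaled to RPM of autosomal reads (Python 3.11.15, NumPy 2.4.6, SciPy 1.17.1). Log2 ratios of bins and segments used counts plus 1 read, those of whole windows and of the 65 kb ends used none, and the difference between the ends is a conditional odds ratio. A bin with 20 or more reads over a pair of libraries was called at 2-fold with an exact conditional binomial 95% interval that excludes 1. Intervals cover counting error only. Over 3 lines, limma compared EBs with undifferentiated cells (limma 3.58.1, R 4.3.3) with an intensity trend, the line as a block and at least 60 reads over 6 libraries. Libraries were paired by line in the model. The correlation of deviations was 0.30 for XT67E1, 0.36 for E14 and only 0.079 for LF2 over 67102 bins, so LF2 shows little pairing. Tested on simulated data, the 2-fold rule also called some unchanged bins and limma recovered few of the 2-fold differences. Named bins were those among the 10 highest of each mark in undifferentiated XT67E1 that exceed both neighbours, and, among the called bins of each comparison, those with the 5 highest and the 5 lowest log2 ratios. Alternatives were other scalings, grids, bin sizes, minimums and pseudocounts, and each line left out. Members, lists and rules were chosen with earlier results of these data known. Library totals were 2252395 reads for each H3K4me3 library. H3K27me3 libraries held 8380007 reads in XT67E1 and 4531733 in LF2 and E14. Nothing in the labels names separate cultures, so p-values over the lines measure the spread between these libraries.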

Additional observations from a re-analysis of the deposited data

Results flagged for a closer look

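The cluster-wide H3K27me3 difference between EBs and undifferentiated cells had opposite directions in different lines when scaled to autosomal reads: the log2 ratio was 0.06 for XT67E1, -0.12 for LF2 and 0.37 for E14. The XT67E1 interval included 0, those of LF2 and E14 did not, and the difference between lines was not tested, since each line has 1 library per state. Other H3K27me3-rich autosomal bins differed by 0.07, -0.38 and 0.16 in the same libraries, and their part in the result was not tested. The directions depended on the scaling: with median scaling the 3 ratios were 0.16, 0.21 and 0.21, all higher in EBs, and with background scaling -0.051, -0.36 and 0.48.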

How the results depend on the processing

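Window totals of single comparisons depended on the scaling. Background scaling gave log2 ratios of 0.13 for H3K27me3 after atRA, -0.051 for XT67E1 EBs, -0.36 for LF2 EBs and 0.48 for E14 EBs. Median scaling gave -0.085, 0.16, 0.21 and 0.21 for the same comparisons, so the LF2 ratio reversed, and 0.31 for H3K4me3 in EBs. Narrowing the window by 10 kb at each end moved no total beyond its counting interval. Dividing the window 40 or 50 kb from the Hoxc4 end, added after seeing the data, turned the E14 difference between the ends from -0.13 to 0.08 and 0.02, with intervals that include 0. Scalings added for the comparison of lines, also after seeing the data, gave with background scaling 0.58, 0.64 and 0.074 for undifferentiated LF2 against XT67E1, E14 against XT67E1 and E14 against LF2. Median scaling gave 0.19, 0.995 and 0.74, and in EBs 0.085, 0.997 and 0.69 in the same order. The Hoxc4 end of LF2 reversed from -0.27 to 0.064 with median scaling. For H3K4me3 the bins called with no read minimum were 3 after atRA and 2 in EBs, and 0 remained after atRA with the grid shifted by 1 kb. In EBs 0 were called under median scaling or with a pseudocount of 5 reads, and 50% of 5 kb bins tested. For H3K27me3 after atRA, 3 bins were called with a pseudocount of 5 reads, 8 with the grid shifted and 3.85% of 5 kb bins. In XT67E1 EBs 0 bins were called under background scaling, with a pseudocount of 5 reads or in 5 kb bins. In LF2 EBs 1 was called with the grid shifted and 0 in 5 kb bins, and in E14 EBs 3 with a pseudocount of 5 reads and 3.85% of 5 kb bins. The 19 called values of single bins fell below 2-fold in 20 of 57 alternatives. Over 3 lines, the mean ratio of the window ranged from -0.031 (without E14) to 0.22 (under median scaling, and also without LF2), and limma called 1 bin under median scaling. With no replicate block limma called 0 bins, as with the block. The causes were not tested. H3K4me3 depth limits what can be seen in the cluster, at a median of 2 reads per bin.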
